A study of Mus musculus with 7 samples.

Results

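Gene-desert peaks were the DNase I peaks of chromosomes 1 to 19 whose summit lay more than 250 kb from every protein-coding transcription start site (TSS) and outside every protein-coding gene body, on the mm10 mouse genome with the GENCODE vM21 genes. They numbered 444326 of the 2700035 autosomal peaks in the 3 deposited peak lists: 148503 of 1005396 for NG, 140455 of 821607 for HG+NT and 155368 of 873032 for HG+miR-93. The lists came from differentiated, conditionally immortalised mouse podocytes, the filtering epithelial cells of the glomerulus, grown in culture. NG cells were kept in 5 mM glucose for 36 h. HG+NT cells were kept in 25 mM glucose for 36 h with 50 nM of a non-targeting microRNA mimic, and HG+miR-93 cells in 25 mM glucose for 36 h with 50 nM of a miR-93 mimic. NG cells carried no mimic according to their labels, so glucose and transfection cannot be told apart between NG and the other lists. Each condition had 2 replicate libraries, which the authors pooled into 1 list against 1 genomic DNA input, which leaves every value below without a replicate error and the conditions without a test. All intervals given are 95% intervals that cover counting error only.

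DNase I cuts DNA where nucleosomes are displaced, so hypersensitive sites mark promoters, enhancers and insulators. Gene deserts are long stretches with no coding gene. They are AT-rich and rich in repeats, mostly closed chromatin, but some hold enhancers that act over long distances on developmental genes at their borders, such as the enhancers around Sox9 and Myc, and some hold CpG-rich elements or the promoters of long intergenic non-coding RNAs (lincRNAs).

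The deserts so defined were 740 stretches with a median length of 384 kb and a longest of 4.29 Mb, and 162 of them reached 1 Mb. They held 457 Mb of determined sequence, 19.1% of the autosomal bases, with a GC content of 38.5% against 42.7% in the rest, and repeats and low-complexity sequence made up 39.9% of their bases against 32.0%.

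The sequences printed here are of 2 kinds. The first were the 300 bases around the summits of NG peaks with very high pileup, where the high-glucose lists had low peaks or none. They are printed because 8 of the 10 other NG desert peaks with a deposited −log10 q of at least 2 resembled the chromosome 13 peak, the desert peak of highest fold, over 44 to 216 aligned bases at 73.2% to 81.8% identity. All are from GRCm38 (mm10), on the strand that matches the chromosome 13 peak. Capitals mark the stretch aligned to the chromosome 13 peak and, in the chromosome 13 peak itself, the 133 bases that at least 5 of the 8 matched.
chr13:5463906-5464205, plus strand: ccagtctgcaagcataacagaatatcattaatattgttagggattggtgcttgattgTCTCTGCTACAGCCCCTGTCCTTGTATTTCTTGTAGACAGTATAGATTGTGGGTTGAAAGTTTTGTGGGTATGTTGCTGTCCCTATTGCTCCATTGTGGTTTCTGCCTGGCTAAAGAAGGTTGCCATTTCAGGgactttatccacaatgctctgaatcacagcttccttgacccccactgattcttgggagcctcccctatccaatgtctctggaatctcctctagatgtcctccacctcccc
chr8:59730527-59730826, plus strand: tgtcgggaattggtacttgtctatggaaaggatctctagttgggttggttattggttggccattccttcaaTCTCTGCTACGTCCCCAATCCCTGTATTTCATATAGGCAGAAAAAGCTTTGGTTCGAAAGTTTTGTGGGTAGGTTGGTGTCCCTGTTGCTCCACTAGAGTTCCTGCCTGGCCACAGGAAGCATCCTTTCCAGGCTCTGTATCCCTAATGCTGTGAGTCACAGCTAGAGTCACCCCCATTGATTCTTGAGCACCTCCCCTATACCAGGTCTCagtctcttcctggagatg
chr12:27912543-27912842, plus strand: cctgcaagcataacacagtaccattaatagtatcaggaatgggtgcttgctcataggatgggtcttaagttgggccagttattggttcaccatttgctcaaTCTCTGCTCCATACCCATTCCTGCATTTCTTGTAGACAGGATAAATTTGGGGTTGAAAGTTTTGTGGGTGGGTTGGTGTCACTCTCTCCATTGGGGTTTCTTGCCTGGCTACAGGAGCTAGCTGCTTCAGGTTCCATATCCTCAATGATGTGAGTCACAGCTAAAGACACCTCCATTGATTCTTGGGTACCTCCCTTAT
chr11:27495784-27496083, minus strand: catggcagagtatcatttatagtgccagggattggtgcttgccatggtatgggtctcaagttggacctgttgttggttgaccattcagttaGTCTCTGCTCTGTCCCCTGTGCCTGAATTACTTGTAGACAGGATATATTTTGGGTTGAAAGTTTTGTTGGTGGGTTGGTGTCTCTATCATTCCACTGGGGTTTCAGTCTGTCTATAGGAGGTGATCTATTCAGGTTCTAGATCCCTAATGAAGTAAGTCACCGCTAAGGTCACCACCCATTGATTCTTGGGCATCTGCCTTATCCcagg
chr4:16479212-16479511, plus strand: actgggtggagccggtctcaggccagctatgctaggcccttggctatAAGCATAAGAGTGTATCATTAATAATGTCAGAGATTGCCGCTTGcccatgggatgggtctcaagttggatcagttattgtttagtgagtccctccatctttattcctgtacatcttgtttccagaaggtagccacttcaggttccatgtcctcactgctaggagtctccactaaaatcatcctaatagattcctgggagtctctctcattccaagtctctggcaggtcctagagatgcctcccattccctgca
The second kind were leading windows of the high-glucose lists and, on chromosome 8, a site with a similar pileup in every list. They are printed to show how CpG content differed between them, with each CG dinucleotide in capitals: 25 in the chromosome 6 window and 18 in the chromosome 12 window, against 2 in the chromosome 16 window and 5 in the chromosome 8 window.
chr6:51178519-51178818, plus strand: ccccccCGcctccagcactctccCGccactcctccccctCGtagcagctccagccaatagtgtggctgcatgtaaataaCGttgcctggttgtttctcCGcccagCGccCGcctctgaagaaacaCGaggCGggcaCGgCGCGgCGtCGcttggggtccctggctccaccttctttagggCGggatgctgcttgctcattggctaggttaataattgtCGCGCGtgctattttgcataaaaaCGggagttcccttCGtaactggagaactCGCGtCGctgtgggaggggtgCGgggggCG
chr12:20234060-20234359, plus strand: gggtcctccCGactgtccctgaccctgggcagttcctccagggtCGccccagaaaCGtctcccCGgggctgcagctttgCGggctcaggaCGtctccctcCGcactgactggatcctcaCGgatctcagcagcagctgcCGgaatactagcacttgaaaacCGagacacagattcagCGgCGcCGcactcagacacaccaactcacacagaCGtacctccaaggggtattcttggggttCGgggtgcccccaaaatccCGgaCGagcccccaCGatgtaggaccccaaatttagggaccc
chr16:3231670-3231969, plus strand: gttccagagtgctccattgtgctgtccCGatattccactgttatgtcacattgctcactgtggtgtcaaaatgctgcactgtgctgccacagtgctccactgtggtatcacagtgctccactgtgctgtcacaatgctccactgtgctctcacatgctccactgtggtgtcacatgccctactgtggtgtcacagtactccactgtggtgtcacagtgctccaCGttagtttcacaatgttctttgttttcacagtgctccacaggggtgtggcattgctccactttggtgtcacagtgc
chr8:99724927-99725226, plus strand: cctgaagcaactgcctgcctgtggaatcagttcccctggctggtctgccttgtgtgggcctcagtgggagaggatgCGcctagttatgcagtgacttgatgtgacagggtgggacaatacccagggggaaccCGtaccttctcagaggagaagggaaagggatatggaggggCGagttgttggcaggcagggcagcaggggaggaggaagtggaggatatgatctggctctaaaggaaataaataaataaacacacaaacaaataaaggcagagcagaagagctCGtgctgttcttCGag

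The lists had been called at a permissive setting. The largest p-value kept was 0.9. The summed width of the desert peaks came to 99.5% of the desert bases under NG, 100.2% under HG+NT and 99.4% under HG+miR-93. Widths were summed without merging, and a peak placed by its summit can run past a desert's edge, so the share of bases covered was not measured. The fragment pileup at each summit was recovered from the deposited fold and p-value of the peak and is given in units of the input depth, so that 1 fragment counted 0.447 under NG, 0.260 under HG+NT and 0.194 under HG+miR-93. HG+NT was thus sequenced 1.72 times and HG+miR-93 2.30 times as deeply as NG, and their pileups are more precise. A recovered pileup below the local input mean was found at 24.7% of the desert peaks of NG, 40.1% of those from HG+NT and 50.1% of those from HG+miR-93. Of the peaks elsewhere these shares were 25.4%, 31.1% and 35.9%. No fragment at all lay under the summit of 144, 69 and 183 desert peaks. A typical desert peak thus lay close to its local input. As for the labelled cell type, a summit within 500 nt of a TSS of Wt1, the podocyte transcription factor gene, was in none of the lists, whereas Synpo, which encodes an actin-binding protein of podocyte foot processes, had summits of 6.70 for NG and 7.01 for HG+NT and none for HG+miR-93. At Podxl a summit reached 5.25 for HG+miR-93 alone, and at Nphs1, the nephrin gene, 4.41 for HG+NT alone.

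Desert peaks were fewer per base than peaks elsewhere in every list. NG had 325 desert peaks per Mb against 442 per Mb outside the deserts, HG+NT 308 against 351 and HG+miR-93 340 against 370. Where peaks nearly fill the sequence, their number per Mb depends on their width. Desert peaks were wider, at medians of 1763, 1954 and 1750 bp for NG, HG+NT and HG+miR-93, against 1325, 1722 and 1614 bp elsewhere. The numbers per Mb are therefore not a measure of fewer accessible sites. As a share of all autosomal peaks, desert peaks made up 14.8% (interval 14.7 to 14.8) under NG, 17.1% (17.0 to 17.2) under HG+NT and 17.8% (17.7 to 17.9) under HG+miR-93, each below the 19.1% of bases. The share of desert peaks was below the share of desert bases on 19 of 19 chromosomes under NG, 16 under HG+NT and 15 under HG+miR-93. These shares describe lists called at a permissive setting, and the intervals between lists do not carry the variation between cultures.

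Pileup was lower in deserts than near genes, and it fell further with distance in both high-glucose lists but hardly in NG. The mean summit pileup of desert peaks was 2.63 under NG, 2.13 under HG+NT and 1.95 under HG+miR-93. Intergenic peaks nearer to genes averaged 2.82, 2.63 and 2.53, peaks in gene bodies beyond 2500 nt of a TSS 2.91, 2.71 and 2.60, and peaks within 500 nt of a TSS 5.90, 5.46 and 5.00. The ordering was the same in the 3 lists: promoters highest, deserts lowest. From 250 to 500 kb, through 500 to 1000 kb, to more than 1000 kb from a TSS, the mean went from 2.65 to 2.60 to 2.61 under NG, from 2.25 to 2.03 to 1.94 under HG+NT and from 2.10 to 1.84 to 1.73 under HG+miR-93. The median pileup of desert peaks was 1.00 times that of all other peaks under NG, 0.8 times under HG+NT and 0.769 times under HG+miR-93. Both NG medians were 6 fragments, and a median moves in whole fragments, so the NG ratio is coarse. By means the ratios were 0.889, 0.769 and 0.738. Peaks were called separately in each list, so these are levels at each list's own peaks and not over fixed regions.

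**Figure D1:**
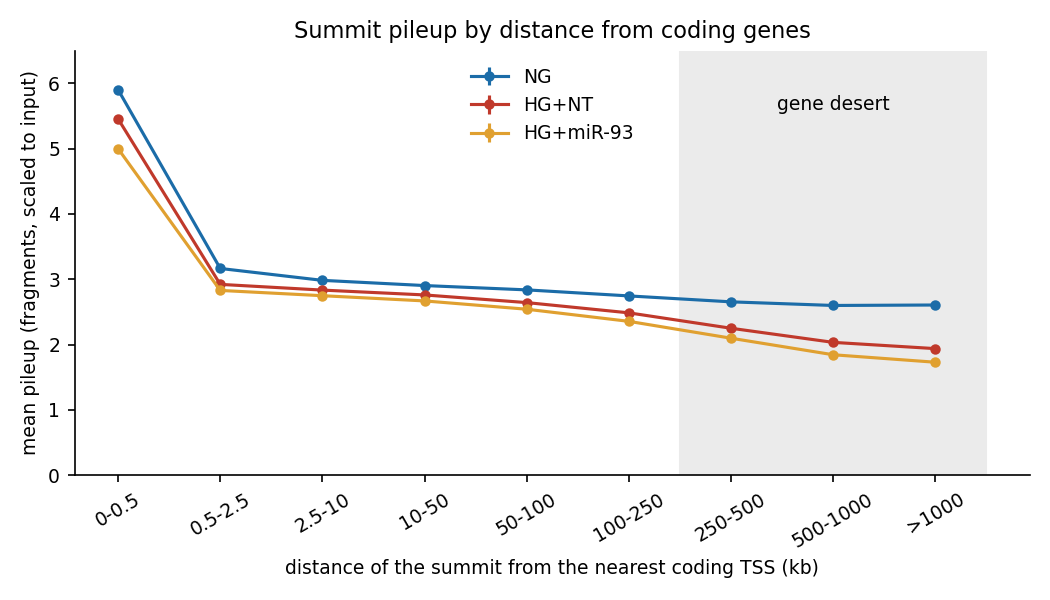
Mean summit pileup (fragments scaled to the input depth, error bars 1 standard error over peaks) against the distance from the nearest protein-coding TSS in kb, for the 3 lists, with the desert distances shaded. Beyond 250 kb only desert peaks are plotted, and the NG line stays near 2.6 where the HG+NT and HG+miR-93 lines fall to 1.94 and 1.73.

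The distance of 250 kb was no step in these values. Intergenic peaks from 240 to 250 kb and from 250 to 260 kb had mean pileups of 2.67 and 2.69 under NG, 2.38 and 2.37 under HG+NT, and 2.25 and 2.21 under HG+miR-93.

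Base composition moved with these differences. In all 3 lists the pileup rose with the GC content of the 300 bases around the summit, and the rise was steeper in the high-glucose lists. Desert peaks of 28% to 32% GC averaged 2.28 under NG, 1.19 under HG+NT and 0.789 under HG+miR-93, while those of 52% to 56% GC averaged 3.18, 3.02 and 2.94. The lists thus lay far apart at AT-rich desert peaks and close together at GC-rich ones. Within the same GC class, AT-rich desert peaks of NG were level with peaks elsewhere beyond 2500 nt of a TSS (ratio 1.04 at 28% to 32% GC), whereas GC-rich desert peaks were below them in every list: at 56% to 60% GC the ratio was 0.870 under NG, 0.789 under HG+NT and 0.773 under HG+miR-93. Weighted over the GC classes of the desert peaks, the mean desert pileup was 0.991 times that of peaks elsewhere in NG, 0.914 times under HG+NT and 0.891 times under HG+miR-93, against 0.918, 0.796 and 0.761 without the weighting. The weighting was added after the data had been seen.

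**Figure D2:**
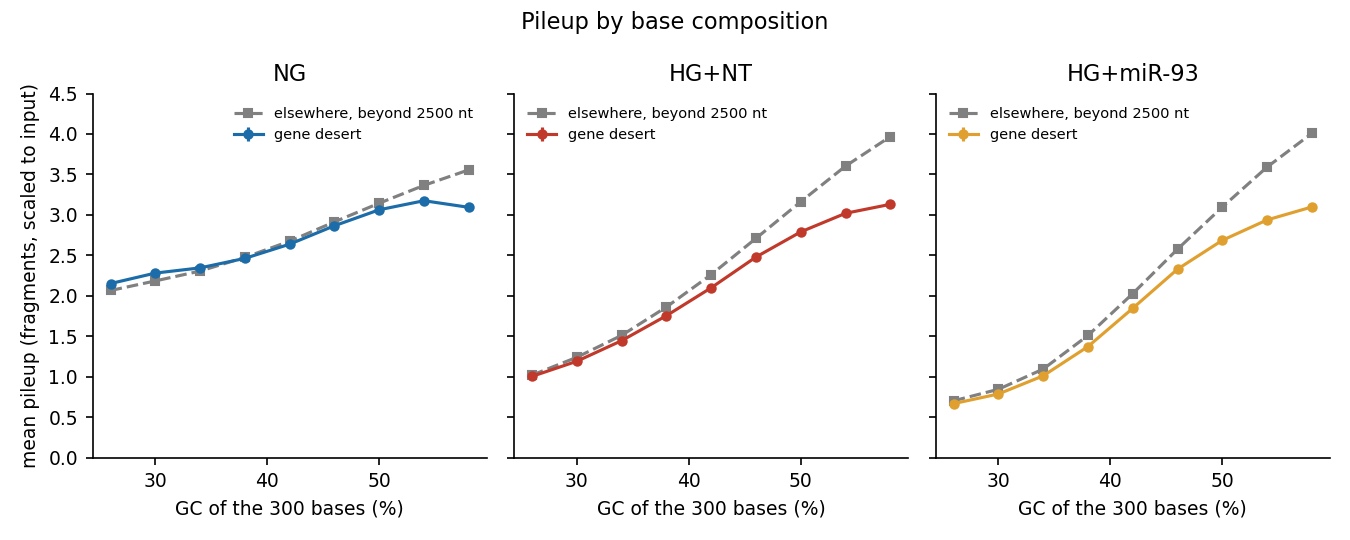
Mean summit pileup (fragments scaled to the input depth) by GC content of the 300 bases around the summit in classes of 4 percentage points, for desert peaks (circles, error bars 1 standard error over peaks) and for peaks elsewhere beyond 2500 nt of a TSS (grey squares), 1 panel per list. The first class also holds all peaks below 24%. Desert and other peaks part at high GC, and the slope is steeper in HG+NT and HG+miR-93 than in NG.

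Strong peaks were much scarcer in deserts than peaks as a whole. Of the 20000 peaks with the largest −log10 p in each list, 1360 were desert peaks under NG (6.80%, interval 6.46 to 7.16), 1006 under HG+NT (5.03%, 4.74 to 5.34) and 926 under HG+miR-93 (4.63%, 4.35 to 4.93). This was 2.98 strong peaks per Mb of desert in NG, 2.20 under HG+NT and 2.03 under HG+miR-93, against 9.61, 9.79 and 9.84 per Mb elsewhere. Among desert peaks more than 1000 kb from a TSS, 1.00% were strong in NG, 0.302% under HG+NT and 0.304% under HG+miR-93, while from 250 to 500 kb the shares were 0.911%, 0.989% and 0.842%. Strong desert peaks thus thinned out with distance in the high-glucose lists and did not in NG. The border of strength lay at the same −log10 p in each list, but 1 fragment counted 0.447 under NG against 0.260 (HG+NT) and 0.194 (HG+miR-93). NG summits thus carried more counting error at that border. The part of depth in this contrast was not tested, and peaks tied at the border were included.

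The share depended on how strength was ranked. With peaks ordered by pileup instead of p-value, 1.85%, 1.78% and 1.60% of the 20000 highest were desert peaks under NG, HG+NT and HG+miR-93, so the lists lay close together. Among the 5000 smallest p-values the shares were 1.38%, 2.32% and 2.42%, with NG the lowest, and among the 50000 smallest 12.2%, 4.68% and 4.34%, with NG the highest. Many peaks carried the same p-value and fold: at the border of the 20000, −log10 p was 1.81 in each list, and 11.6%, 21.5% and 17.5% of the 20000 were tied there.

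**Figure D3:**
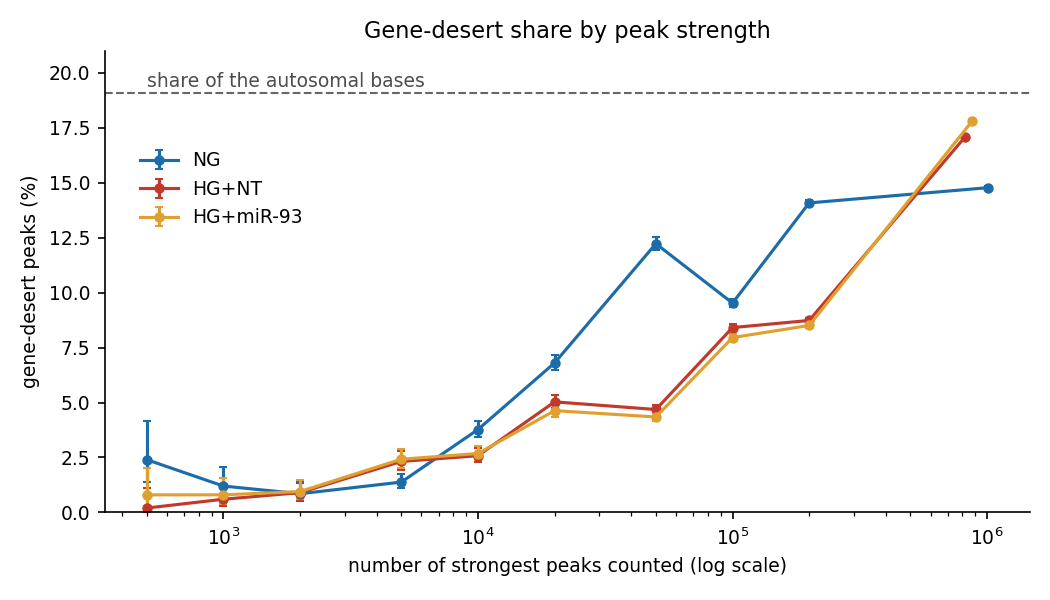
Percentage of desert peaks among the strongest peaks of each list by deposited p-value (vertical axis, with 95% Wilson intervals), against how many peaks were counted (horizontal, log scale). The dashed line is the 19.1% of autosomal bases in deserts. All lists lie far below it among the strongest peaks, and NG leaves the other lists between 5000 and 50000 peaks.

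The strong desert peaks were richer in GC than desert peaks as a whole. Their windows averaged 44.7% GC in NG, 49.8% under HG+NT and 50.8% under HG+miR-93, against 40.7%, 42.0% and 42.8% for all desert peaks, and soft-masked repeats made up 25.1%, 15.1% and 16.2% of the bases. Strong peaks elsewhere beyond 2500 nt of a TSS were again richer, at 49.0%, 52.1% and 52.9% GC. Few desert windows resembled a CpG island (GC of at least 50% and an observed over expected CpG ratio of at least 0.6): 142 under NG, 158 under HG+NT and 197 under HG+miR-93. Their mean pileup was 3.54, 3.14 and 2.97, against 3.14, 2.95 and 2.87 for other desert windows of at least 50% GC, with standard errors over peaks of 0.151, 0.154 and 0.124. The excess of CpG-island-like windows was thus within 3 standard errors in each list. Strong peaks were 4.23% (interval 1.95 to 8.91), 6.33% (3.47 to 11.3) and 5.08% (2.78 to 9.09) of the CpG-island-like windows, and 2.48% (2.20 to 2.79), 3.69% (3.38 to 4.02) and 3.06% (2.81 to 3.33) of the others of that GC.

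Desert peaks at the starts of lincRNAs stood somewhat above the remaining desert peaks. Within 500 nt of a lincRNA TSS lay 482 desert peaks of NG, 423 from HG+NT and 460 from HG+miR-93, and their mean pileup was 3.03, 2.86 and 2.67 (standard errors 0.0522, 0.0580 and 0.0510) against 2.63, 2.13 and 1.95 for the others. Their windows were also richer in GC (44.8%, 46.2% and 46.3%, against 40.7%, 42.0% and 42.8%), and the part of GC in the difference was not tested. Coding promoters, at 5.00 or more in each list, were far above them.

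Strong desert peaks of different lists seldom lay at the same place. A summit within 150 bp of a strong HG+NT summit was found for 16 of the 1360 strong desert peaks of NG (1.18%, interval 0.725 to 1.90), against 9.82% of all strong NG peaks. A strong HG+miR-93 summit met 21 of them (1.54%, 1.01 to 2.35), against 7.46% of all. Between the high-glucose lists, 68 met: 6.76% (5.37 to 8.48) of the 1006 strong HG+NT desert peaks and 7.34% (5.83 to 9.21) of the 926 of HG+miR-93, against 12.5% of all strong peaks of each list. Seen from the high-glucose side, the 16 and 21 meetings with NG were 1.59% and 2.27% of the strong desert peaks of HG+NT and HG+miR-93, against 9.82% and 7.46% of all their strong peaks. In every pair the desert share lay below the share over all strong peaks. The latter included 5600 (NG), 3839 (HG+NT) and 2951 (HG+miR-93) peaks within 500 nt of a TSS. Meetings of strong peaks away from promoters were not counted apart, so the low shares cannot be called particular to deserts. When any overlap of 1 bp counted, 4.19% of the strong NG desert peaks met HG+NT and 5.07% met HG+miR-93, and 17.4% of those of HG+NT met HG+miR-93.

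Just 2 desert sites were strong in all 3 lists with the 3 summits within 150 bp of one another. These were 0.147% of the strong desert peaks of NG, 0.199% of those from HG+NT and 0.216% of those from HG+miR-93.

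The first shared site, on chromosome 6, was the strongest desert peak of HG+NT and had the CpG-rich window printed above. It lay 254 kb from Nfe2l3, which encodes a CNC-family basic leucine zipper factor, and 524 kb from Npvf, which encodes RFamide neuropeptides, with no annotated transcript over it and Mir148a as the nearest annotated gene start. Its pileup was 7.59 under NG (17 fragments, interval 4.42 to 12.2), 18.7 under HG+NT (72 fragments, 14.6 to 23.5) and 11.7 under HG+miR-93 (60 fragments, 8.90 to 15.01), over an input mean of 3 in each list. The intervals of NG and HG+NT did not overlap, while that of HG+miR-93 overlapped both. This site was named both for being strong in all lists and for leading the desert peaks of HG+NT. The latter choice favours a high HG+NT value. HG+NT was 1.99 times the geometric mean of the other lists there, with no replicate behind the value. It was the only desert peak of HG+NT with a −log10 q above 2 (3.36), beside 93 peaks elsewhere, and 0.0114% of all HG+NT peaks passed that limit.

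The second shared site, on chromosome 8, lay 309 kb from Cdh8 and inside the lincRNA A330008L17Rik, in the desert between the cadherin genes Cdh8 and Cdh11. Its pileup was 5.81 under NG (interval 3.09 to 9.93), 5.97 under HG+NT (3.79 to 8.96) and 5.44 under HG+miR-93 (3.62 to 7.86), and the input was at the background mean of 1.428 in each. The 3 lists were level there, with HG+NT at 1.06 times the geometric mean of the others.

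The other leading peaks of the high-glucose lists were moderate. On chromosome 16, 359 kb before the olfactory receptor gene Olfr161 and with no coding gene on the other side, the pileup was 10.7 under NG, 16.6 under HG+NT and 15.5 under HG+miR-93 over an input of 5.80. The window printed above shows a short unit repeated in tandem. On chromosome 8, 289 kb from Nr3c2, the mineralocorticoid receptor gene, it was 4.02, 7.79 and 5.05 over the background input. On chromosome 15, in the desert between Tbc1d22a and Fam19a5, HG+miR-93 had 7.58 (interval 5.39 to 10.4) and the NG peak there 2.68 (0.984 to 5.83), with summits 43 bp apart. The HG+NT peak over that place had a pileup of 5.97 (3.79 to 8.96) at its own summit 533 bp away, and its interval overlapped both.

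The strongest desert peak of HG+miR-93, with a pileup of 17.1 (interval 13.7 to 21.1), lay on chromosome 12 inside the non-coding transcript Gm49692. The peaks of NG and HG+NT that covered its summit had their own summits 618 and 960 bp away, at 12.1 and 14.5. The input mean there was 2.82 at the HG+miR-93 summit and 7.20 and 7.40 at the others, so the site stood out by its local input as well as by its pileup. Its −log10 q was 1.68, below 2, and no desert peak of HG+miR-93 reached 2. Over all peaks 1 did, which was 0.000115%.

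NG differed from both by a few desert peaks of very high pileup. With a −log10 q of 2 or more there were 11 desert peaks of NG and 62 peaks elsewhere, together 0.00726% of the NG list. Outside deserts and beyond 2500 nt of a TSS, 36 NG peaks passed that limit, where HG+NT had 7 and HG+miR-93 had 0. An excess of NG at this limit was thus not particular to deserts. Within 500 nt of a TSS HG+NT led instead, with 83 such peaks against 20 for NG and 1 for HG+miR-93. The 3 NG desert peaks with the largest −log10 p lay on chromosomes 4, 13 and 18. Their pileups were 145.2 (325 fragments, interval 130 to 162), 66.5 (149 fragments, 56.3 to 78.1) and 77.3 (173 fragments, 66.2 to 89.7). The chromosome 4 peak was the first of the whole NG list. It lay in the lincRNA Gm11861, 316 kb from Ripk2, a kinase gene of innate immune signalling, and the input was also high there, at a mean of 18. The chromosome 13 peak lay in the lincRNA Gm40660, 397 kb from Klf6, a zinc finger factor gene, over an input of 4, and its fold of 13.5 was the largest of any desert peak. The chromosome 18 peak lay 524 kb from Sall3, a zinc finger factor gene, over an input of 8.

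The high-glucose lists showed no such peaks at these 11 places. HG+NT had no peak over 4 of the 11 summits and covering peaks with summit pileups of 1.30 to 5.19 (median 2.60) at the other 7. HG+miR-93 had none over 3 and covering peaks of 1.36 to 4.28 (median 2.72) at 8. These values belong to the covering peaks' own summits, which lay 32 to 10556 bp from those of NG under HG+NT and 12 to 635 bp under HG+miR-93, so they are not all values at the NG summit itself. NG ranged from 12.5 to 145.2 with a median of 20.99, and wherever a high-glucose list had a peak its interval lay below that of NG. The sites were chosen by their NG q-values, so NG standing highest at them follows in part from that choice. The next desert peak of NG in the order of p-values had a −log10 q of 0.518 and a pileup of 9.83, so the 11 were set off from the rest by q-value. At the chromosome 8 site, for example, 773 kb from the nearest coding TSS, the pileup was 37.5 under NG (interval 29.9 to 46.4), 5.19 under HG+NT (3.17 to 8.02) and 4.28 under HG+miR-93 (2.68 to 6.47). The high-glucose summits lay 32 bp (HG+NT) and 156 bp (HG+miR-93) from that of NG. At the chromosome 12 site between Sox11 and Dcdc2c NG had 20.99 (15.4 to 27.9), and the covering peaks had 2.08 (0.897 to 4.09) at an HG+NT summit 350 bp away and 1.94 (0.932 to 3.57) at an HG+miR-93 summit 259 bp away. The pooled list does not show whether 1 or both NG replicates carried these fragments.

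**Figure D4:**
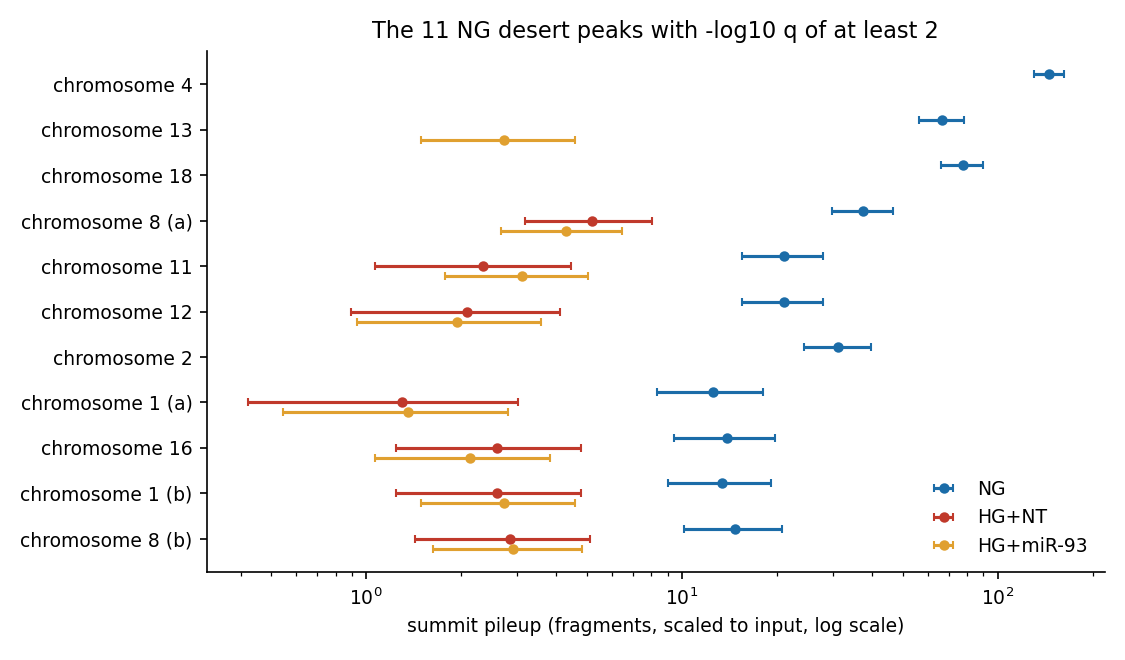
Summit pileup (fragments scaled to the input depth, log scale) of the 11 NG desert peaks with a −log10 q of at least 2, named by chromosome, with the peaks of the other lists that cover the same place, each at its own summit. Error bars are 95% exact Poisson intervals, and a missing point means that no peak of that list covered the NG summit. All NG points lie at 12.5 or more and all others at 5.19 or less.

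The shared sequence of these NG peaks, chosen for a search after their values had been seen, was not rare in deserts. Apart from the chromosome 13 peak used as the query, 458 of the 148502 other NG desert windows matched it at an E-value of at most 1e-05 (0.308%), as did 667 HG+NT windows (0.475%) and 681 HG+miR-93 windows (0.438%). The matching NG windows had the median of all NG desert peaks, 2.68, but a mean of 3.45 against 2.63, and 8 of the 458 exceeded a pileup of 10. The matching HG+NT windows had a median of 2.60, above the 2.08 of all HG+NT desert peaks, and reached at most 5.19. The matching HG+miR-93 windows had a median of 2.53, above 1.94, and reached at most 5.44. Strong peaks numbered 16, 8 and 8 among the matching windows of NG, HG+NT and HG+miR-93. Among the 62 NG peaks of −log10 q of at least 2 outside deserts, 3 matched. The chromosome 18 peak and the peak 368 kb from Dusp26 on chromosome 8 did not match. The chromosome 13 peak and the 8 NG peaks that matched it had 0 to 3 CpG dinucleotides in their 300 bases.

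Pairs of lists were also compared at sites taken from the third. At the strong desert sites of NG, 154 of 1360 had a summit of both high-glucose lists within 150 bp, and HG+NT was at a median of 1.05 times HG+miR-93 (quartiles 0.823 and 1.25), against 1.12 over all such strong sites. At none of these desert sites were the Poisson intervals apart, in either direction. Over all strong sites HG+NT was higher at 0.715% and lower at 0%. At the strong desert sites of HG+NT, 110 had both other lists, NG was at 0.919 times HG+miR-93, and again no site had intervals apart, against 0.803% higher and 0.0383% lower over all. At those of HG+miR-93, 99 had both, NG was at 0.956 times HG+NT, and 1 site was lower in NG (1.01%), against 0.144% higher and 0.959% lower over all. With 99 to 154 sites and shares this small, the desert sites cannot be told apart from all strong sites in this respect. The list that chose the sites stood outside each comparison, so a rise with high glucose and a fall with the miR-93 mimic at the same sites was not measured here.

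Desert peaks on chromosomes 8, 15 and 19 stood above the desert mean in the high-glucose lists. Desert pileup on them was 1.26, 1.22 and 1.30 times the desert mean from HG+NT and 1.24, 1.20 and 1.30 times that from HG+miR-93, against 1.03, 1.01 and 1.01 times under NG. Once each list had been divided by its own desert mean, HG+NT was thus 1.21 to 1.29 times NG there, and 0.906 to 1.02 times on the other 15 autosomes besides chromosome 6, which was at 1.05. Before that division the mean pileups of HG+NT and NG were close on these chromosomes, at 2.68 and 2.71 on chromosome 8, 2.60 and 2.66 on chromosome 15 and 2.78 and 2.66 on chromosome 19, and HG+NT was lower than NG on every autosome other than chromosome 19. HG+miR-93 followed HG+NT on every autosome, with a ratio between them of 0.979 to 1.03. Peaks outside the deserts, scaled in the same way, shifted alike: HG+NT over NG was 1.22 to 1.25 on chromosomes 8, 15 and 19 and 0.928 to 1.02 on the 15. Whole chromosomes moved together, so copy number and accessibility cannot be told apart in these lists.

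**Figure D5:**
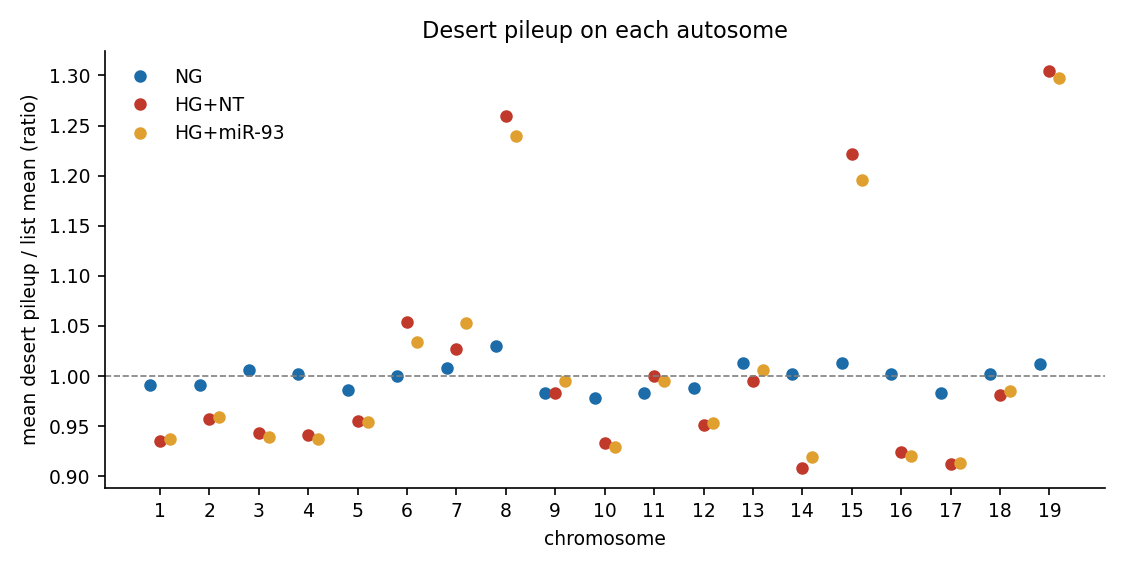
Mean desert pileup on each autosome divided by the mean over all desert peaks of the same list (ratio, no error bar since each list is 1 pool), for NG, HG+NT and HG+miR-93. The high-glucose points on chromosomes 8, 15 and 19 lie at 1.20 to 1.30 where the NG points lie at 1.01 to 1.03.

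The strong desert peaks of the high-glucose lists were concentrated on the same chromosomes. Leaving out the tied peaks at the border, which had entered from chromosome 1 upwards, 349 of 672 strong HG+NT desert peaks (51.9%) and 382 of 698 strong HG+miR-93 ones (54.7%) lay on chromosomes 8, 15 and 19, against 200 of 1021 of NG (19.6%). Of all desert peaks, 14.3%, 14.95% and 17.3% of HG+NT, HG+miR-93 and NG lay there. Strong peaks elsewhere beyond 2500 nt of a TSS, also without ties, lay there in 33.2%, 34.8% and 14.7% of cases. The concentration was thus not particular to deserts. Per Mb of desert, chromosome 19 was highest in each list, with 6.58 strong peaks under HG+NT, 7.16 under HG+miR-93 and 3.95 under NG, and chromosomes 8 and 15 of HG+NT had 6.22 and 5.74.

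The AP-1 sequence, bound by the Fos and Jun factors of the stress response, was no more common in strong desert peaks than in deserts at large. TGANTCA, searched on both strands of the 300 bases, was found in 9.78% (interval 8.31 to 11.5) of strong desert windows of NG, 9.44% (7.79 to 11.4) from HG+NT and 9.40% (7.68 to 11.5) from HG+miR-93. All desert peaks had it in 10.1%, 10.4% and 10.4%, and 9.02% of the 1521734 consecutive 300-base tiles of the deserts held it. Among desert peaks within the 5000 strongest, 14 of 69 had it in NG (20.3%, 12.5 to 31.2), 13 of 116 under HG+NT and 15 of 121 under HG+miR-93. Without the 11 NG peaks above, 6 of the 14 being in them, the NG share was 13.8% (7.16 to 24.9).

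Among strong desert peaks, GC-rich sequences were more common and AT-rich ones less common than in deserts at large. The SP-KLF box GGGCGG stood in 3.53%, 4.77% and 5.72% of strong desert windows of NG, HG+NT and HG+miR-93, against 1.69%, 1.82% and 2.05% of all desert windows and 1.30% of tiles, and the E-box CAGCTG, used by factors such as the podocyte regulator TCF21, in 15.7%, 17.99% and 19.2%, against 10.995%, 12.3% and 12.9% of all and 7.87% of tiles. The AT-rich homeodomain sequence TAATTA, which LMX1B-type factors bind, was less common, at 8.53%, 4.27% and 3.996% against 11.9%, 10.3% and 9.63% of all and 13.5% of tiles, and so was the GATA sequence AGATAA, at 16.8%, 11.7% and 11.8% against 21.2%, 19.9% and 19.1% of all and 22.5% of tiles. In windows of 44% to 52% GC alone, TAATTA was in 4.57%, 4.39% and 4.89% of strong windows and in 5.35%, 5.01% and 5.11% of all, with each of the latter inside the interval of the former. AGATAA was likewise about level there, at 12.5%, 14.3% and 14.1% of strong windows and 14.4%, 14.6% and 14.4% of all, again inside the intervals. GGGCGG and CAGCTG were not compared within a GC class.

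The remaining sequences were either rare or varied between lists. The MAF sequence TGCTGAC was in 4.93%, 8.05% (interval 6.53 to 9.90) and 6.26% of strong desert windows, against 4.32%, 4.90% and 5.20% of all and 3.62% of tiles. In windows of 44% to 52% GC it was in 6.05%, 8.62% (6.65 to 11.1) and 7.52% of strong windows and 6.09%, 6.63% and 6.71% of all. The NG shares were level there, while the HG+NT share of all windows stayed just below the interval of the strong ones. For HG+miR-93 the interval (5.57 to 10.1) held the share of all windows. RUNX TGTGGT, not compared within a GC class, was in 20.7%, 21.8% and 27.2% (24.4 to 30.2), against 19.04%, 19.5% and 19.7% of all and 17.6% of tiles. The TEAD sequence GGAATG was in 20.6%, 17.8% and 20.1% against 17.8%, 18.6% and 18.8% of all and 16.3% of tiles. The CTCF motif was in 3 strong desert windows of each list (0.221%, 0.298% and 0.324%), against 1.39%, 0.767% and 0.696% of strong windows elsewhere beyond 2500 nt of a TSS and 0.0507% of tiles. CTCF is the insulator protein that anchors chromatin loops. ETS CCGGAAG was in 1.10%, 1.69% and 1.62% of strong desert windows of NG, HG+NT and HG+miR-93, against 0.590%, 0.698% and 0.763% of all. WT1-EGR GCGTGGG was in 1.32%, 1.99% and 1.73%, against 0.597%, 0.634% and 0.660%. These were 15 to 20 windows each, and each share of all lay below the interval of the strong ones. Neither was compared within a GC class, and both were more common in strong windows elsewhere beyond 2500 nt of a TSS. Forkhead TGTTTAC and the CRE were in at most 4.78% of strong desert windows in any list.

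Single deserts differed widely. Of 488 deserts of at least 200 kb, 65 held no strong peak of any list, and the median desert held 4.76 strong peaks per Mb summed over the lists. The richest was chr15:87875231-88350301, between Fam19a5, which encodes a secreted brain protein, and Zdhhc25, with 77.9 per Mb: 0 strong peaks under NG, 23 under HG+NT and 14 under HG+miR-93. Next came chr1:190420715-190661768, between the homeobox gene Prox1 and Rps6kc1, with 5, 6 and 5, or 1, 4 and 4 without tied peaks. The third was chr5:118810740-119420668, between Med13l and the T-box gene Tbx3, with 7, 11 and 22, or 7, 8 and 17 without them. The desert chr11:113032225-113244852 after Sox9 had 0, 8 and 5, and chr6:50904440-51182669 between Npvf and Nfe2l3, which holds the shared chromosome 6 site, had 4, 6 and 7. Their GC contents, 43.9% to 48.6%, were all above the 38.5% of deserts as a whole, and 11 of the 20 richest deserts lay on chromosomes 8, 15 and 19, which held 61 of the 488.

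Of a list of 52 podocyte, kidney development, matrix and stress genes, 18 bordered a desert, at 23 stretches. Myc, a growth regulator on chromosome 15, had 2, 1 and 1 strong peaks of NG, HG+NT and HG+miR-93 before it and 4, 6 and 6 in the desert of 1321 kb after it, which holds Pvt1. The 3197 kb desert after Zeb2, a repressor of epithelial genes, had 23, 3 and 1, with 9, 1 and 0 left when the tied peaks were set aside. In the 124 kb desert before Irs2, an insulin receptor substrate gene on chromosome 8, there were 1, 4 and 2, and the mean pileup was 2.99, 4.07 and 4.08. The deserts before Irs1 and after Meis2 held no strong peak. The stretches after Fn1, Jun and Zeb1 and before Runx2 and Bmp2 held none either, and the rest held 8 or fewer of any list.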

How the data were processed

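DNase-Seq reads were trimmed, mapped to mm10 with Bowtie, filtered for duplicates and peak-called with MACS2 by the authors, with base calls from CASAVA 1.8.2 per the labels. Versions of Bowtie and MACS2 are not given in the sources used here. Each deposited list gives a fold (ratio of pileup to local input, each with 1 added), a −log10 p-value and a −log10 q-value, plus the offset of the summit. The fragment pileup and the input mean were recovered from the deposited fold ratio and −log10 p of each peak, a single solution existing for 99.3%, 97.5% and 98.7% of the NG, HG+NT and HG+miR-93 peaks (the smallest solution was taken elsewhere). The recovery was tested on simulated data. No peak was filtered out for low values.

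Genes were GENCODE vM21 and sequences GRCm38. Strong peaks were the 20000 of largest −log10 p, then fold, chromosome and position. Named sites were the desert sites strong in all 3 lists within 150 bp, the 3 leading peaks of each list, and the 5 deserts of at least 200 kb with most strong peaks per Mb, and genes came from a list. Other sites, windows and genes named were chosen after their values were seen. The regions and lists were chosen with earlier results of these data known. Since the lists are pools, the authors' count comparison near start sites was not repeated, 0 columns of unmatched samples were found, and no test was run. Shares have Wilson and pileups exact Poisson intervals, both at 95%. Sequence search used BLASTN 2.17.0 with windows of 300 bases, and calculations used Python 3.11.15, numpy 2.4.6, pandas 2.3.3 and scipy 1.17.1.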

Additional observations from a re-analysis of the deposited data

How the results depend on the processing

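No result carried a test, so no call was there to be lost, but the order of the lists among the strongest peaks turned: NG had the highest desert share of the 20000 strongest and the lowest of the 5000 strongest. Triplets of values follow the order NG, HG+NT, HG+miR-93. With a distance of 100 kb, 25.7%, 28.4% and 29.3% of all peaks and 13.3%, 12.4% and 12.2% of the 20000 strongest were desert peaks, and with 500 kb 6.91%, 8.40% and 8.81% of all and 3.20%, 1.50% and 1.33% of the strongest. With genes of every biotype 0.678%, 0.806% and 0.849% of all peaks were left. Among the 5000 strongest the share was 1.38%, 2.32% and 2.42%, among the 50000 strongest 12.2%, 4.68% and 4.34%, by order of pileup 1.85%, 1.78% and 1.60%, and with input at most 3 times the background 7.75%, 5.42% and 4.94%. A random order of tied peaks, added after the data had been seen, gave 6.86%, 5.19% and 4.83%, inside the intervals. For the relative desert pileup, the mean gave 0.889 for NG, leaving out chromosomes 6, 8, 15 and 19 gave 0.692 for HG+miR-93, and the weighting by GC class, added later, 0.914 (HG+NT) and 0.891 (HG+miR-93), as means. Desert peaks met with 1 bp of overlap were 4.19% of NG in HG+NT, 5.07% of NG in HG+miR-93, 5.57% of HG+NT in NG, 17.4% of HG+NT in HG+miR-93, 7.24% of HG+miR-93 in NG and 19.5% of HG+miR-93 in HG+NT. With the 50000 strongest they were 3.37% of HG+NT in NG, 8.97% of HG+NT in HG+miR-93, 3.55% of HG+miR-93 in NG and 9.67% of HG+miR-93 in HG+NT. NG over HG+miR-93 at sites of HG+NT went from 0.919 to 1.01, across 1, without chromosomes 6, 8, 15 and 19. The AP-1 share was 2.35%, 2.98% and 3.13% in windows of 50 bp on either side. Among the 5000 strongest it was 20.3% for NG and 12.4% for HG+miR-93, and without the peaks of −log10 q of at least 2, an alternative added later, 13.8% for NG and 12.4% for HG+miR-93. Apart from what each alternative's construction changes, the cause was not tested.

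No paired analysis was possible because each condition is 1 pooled list, and for the same reason no replicate was left out. A single NG fragment is worth 0.447 units of pileup against 0.194 for HG+miR-93, so a difference of a few units at one NG site is within counting error. Glucose, mimic transfection and library depth differ together between NG and the other lists.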

Other observations

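Few desert peaks had no overlapping peak in another list. This follows largely from the permissive calling, since desert peak widths summed to 99.5%, 100.2% and 99.4% of the desert bases under NG, HG+NT and HG+miR-93. The shares below therefore do not show that accessible sites were shared between lists. Of the NG desert peaks, 0.916% had no overlapping HG+NT peak and 1.34% no overlapping HG+miR-93 peak, against 0.987% and 1.32% of NG peaks elsewhere. Of the HG+miR-93 desert peaks, 0.919% had none in NG and 0.507% none in HG+NT, against 1.72% and 0.881% elsewhere. Of those of HG+NT, 1.32% had none in NG and 1.34% none in HG+miR-93, against 2.07% and 1.59% elsewhere.

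The local input was at its genome-wide background at 48.4%, 47.1% and 46.1% of the desert peaks of NG, HG+NT and HG+miR-93, against 30.3%, 30.95% and 31.4% of other peaks. Desert peaks of NG had a median width of 1763 bp, those of HG+NT 1954 bp and those of HG+miR-93 1750 bp, against 1325, 1722 and 1614 bp elsewhere.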
